A study of Homo sapiens with 9 samples.

Results

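E2F4 overexpression in 293T cells, a transformed line derived from human embryonic kidney, was examined by setting the hE2F4 library against the blank library of the same RNA-seq experiment. The series held 9 libraries of 293T cells, 1 per condition. The hE2F4 cells were transfected with the lentiviral expression plasmid pLV[Exp]-EGFP-EF1A carrying the open reading frame of human E2F4 under the EF1A promoter. Another 7 libraries carried hNRF1, hEGR1, hZBTB7A, hHOXA11, hRORA, hTFCP2 or hNKX2-8 in the same vector, of which the last 4 served as control TFs. The reference was a library labelled blank, for which the methods of the study name an empty control plasmid. RNA was taken 48 h after transfection. By the methods all of the cells had the 293T background and a transfection, though the label blank does not itself state one. The hE2F4 cells came from 1 transfection with no replicate.

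The study asked whether TFs such as E2F4 change the expression of lncRNAs conserved between human and mouse more than that of other lncRNAs, and these libraries also carry the response of every mRNA. A gene was measured when it reached 1 CPM (counts scaled to library size by TMM, in CPM units) in the higher of hE2F4 and blank. It was raised or lowered when it differed at least 2-fold between them after a prior count of 2 was added, which pulls the ratio of low genes toward 1, and E2F4-specific when hE2F4 also lay outside the range of all 8 other libraries, which gives the only measure of unrelated variation here. E2F4 itself was left out. Of 57163 genes counted 14192 were measured. In hE2F4 522 were raised (3.68% of those measured) and 37 lowered (0.261%), and 412 of these 559 genes were E2F4-specific, 391 of them raised (2.76%) and 21 lowered (0.148%). A gene that reached 1 CPM in hE2F4 but not in blank was measured only through hE2F4, and 222 of the 522 raised genes were of this kind. Among the 13705 genes at 1 CPM or more in blank 300 were raised (2.19%). Every ratio below describes 1 library against another, and its 95% interval covers counting error only.

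E2F4 is a member of the E2F family of cell cycle transcription factors. It binds DNA with a DP partner, is held by the pocket proteins p107 and p130 in resting cells, and with the MuvB proteins forms the DREAM complex, which is known as a repressor of cell cycle genes. In multiciliated epithelia E2F4 has another known role: with the geminin family proteins MCIDAS and GEMC1 it switches on the genes for centriole amplification.

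The E2F4 gene (chr16:67226072-67232821, GRCh37) checked the label. It had 69762 counts in hE2F4, 3905 CPM, against 63.0 to 77.7 CPM in the 7 other TF libraries and 72.5 CPM in blank, a ratio to blank of 53.9 (95% interval 51.0 to 56.9). The counts cover the gene as a whole, so plasmid and endogenous transcripts were added together. Total counts were 18050824 in hE2F4, 14177970 to 17746740 in the other TF libraries and 18915400 in blank. The 9 genes listed as expressed by 293T cells were all measured and none was raised or lowered. Their summed level was 1937 CPM in hE2F4, 1699 to 2083 CPM in the other TF libraries and 2232 CPM in blank. Of 44 markers of fibroblasts, leukocytes, keratinocytes and kidney tubules 7 were measured and none was raised or lowered.

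Levels of the inserted genes in libraries that should not carry them departed from the rest in 4 places, and 2 of these touch hE2F4 and its reference. TFCP2 had 653 counts in hE2F4, 664 to 703 in the TF libraries other than hTFCP2, and 9812 in blank, 533 CPM, so that blank stood 12.4 times above the median of the other libraries without the insert. ZBTB7A had 1436 counts (80.4 CPM) in hE2F4, 30.7 to 41.2 CPM in the TF libraries without its insert and 30.5 CPM in blank. That excess in hE2F4 came to 1.02% of the ZBTB7A level of the hZBTB7A library, and the excess of TFCP2 in blank to 3.24% of that of hTFCP2. The same kind of excess was seen for HOXA11 in hZBTB7A (1.34%) and for RORA in hHOXA11 (0.553%). Whether these reads came from the cells or from another construct or library was not tested. TFCP2 is thereby 1 of the 21 E2F4-specific lowered genes, since its level in hE2F4 was also the lowest of 9 by a small margin, and ZBTB7A is among the raised genes that were not E2F4-specific.

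The genes at the E2F4-specific end of the response included neighbours on chromosome 5. The sequences before their starts are given here as a description, and whether E2F4 acts through them was not tested. CDC20B (chr5:54408823-54469003, GRCh37, minus strand), MCIDAS (chr5:54515442-54523143, minus strand) and CCNO (chr5:54526980-54529508, minus strand) lie within 121 kb. The windows of TP73 and E2F7, a further pair of E2F4-specific raised genes, are shown with them. Each is the 250 bases before the first start listed by RefSeq (GRCh38.p14), read in the direction of the gene, and capitals mark the shorter cores of the E2F site on either strand, which are TTCCCGC and its variants with another middle, namely TTGGCGC as well as TTCGCGC and also TTGCCGC, with the further base that completes TTTGGCGC where it is there.
MCIDAS, chr5:55227316-55227565: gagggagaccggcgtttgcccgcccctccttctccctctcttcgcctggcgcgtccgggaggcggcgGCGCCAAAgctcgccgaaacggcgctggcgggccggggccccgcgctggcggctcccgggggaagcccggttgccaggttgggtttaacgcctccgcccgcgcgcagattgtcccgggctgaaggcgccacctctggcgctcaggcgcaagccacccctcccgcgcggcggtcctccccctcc
CCNO, chr5:55233609-55233858: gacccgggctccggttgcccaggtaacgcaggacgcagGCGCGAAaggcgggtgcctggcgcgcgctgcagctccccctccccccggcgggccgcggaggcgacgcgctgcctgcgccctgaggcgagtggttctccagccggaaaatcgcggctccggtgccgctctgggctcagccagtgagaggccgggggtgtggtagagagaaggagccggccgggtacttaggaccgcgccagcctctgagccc
CDC20B, chr5:55173178-55173427: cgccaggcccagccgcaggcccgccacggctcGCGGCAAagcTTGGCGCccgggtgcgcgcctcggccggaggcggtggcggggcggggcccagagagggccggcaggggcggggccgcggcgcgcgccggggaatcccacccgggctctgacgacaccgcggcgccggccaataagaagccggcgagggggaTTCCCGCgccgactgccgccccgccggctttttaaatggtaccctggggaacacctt
TP73, chr1:3652266-3652515: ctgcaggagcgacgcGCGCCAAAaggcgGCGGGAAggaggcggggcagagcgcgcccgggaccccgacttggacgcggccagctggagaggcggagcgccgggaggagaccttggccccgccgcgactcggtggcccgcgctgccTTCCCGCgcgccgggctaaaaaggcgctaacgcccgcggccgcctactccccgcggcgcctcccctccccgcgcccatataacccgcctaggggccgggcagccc
E2F7, chr12:77065570-77065819: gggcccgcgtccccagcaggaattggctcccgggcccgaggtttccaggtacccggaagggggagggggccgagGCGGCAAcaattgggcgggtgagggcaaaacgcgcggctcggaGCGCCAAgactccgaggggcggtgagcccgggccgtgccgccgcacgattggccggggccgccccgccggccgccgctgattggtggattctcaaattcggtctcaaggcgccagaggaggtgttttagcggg

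The complete site TTTGGCGC was found in the MCIDAS window, 183 bases before the start on the opposite strand, and in the TP73 window, 235 bases before the start. CCNO, CDC20B and E2F7 had only shorter cores. These are letter matches in 1 window and say nothing of binding. The genes shown were chosen with results of these data known. Over all 300-base windows of E2F4-specific raised mRNAs, 2.18% held an 8-base site (TTTCCCGC or TTTGGCGC), beside 3.29% for measured mRNAs. A shorter core was in 18.5%, beside 19.2%.

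Some regulators of the multiciliated cell programme were raised in hE2F4. The gene lists were chosen with earlier results of these data known, so the shares given for them are descriptions and not tests. The list of multiciliogenesis regulators and centriole amplification had 21 measured genes, of which 6 were raised, beside 3.68% of all measured genes. hE2F4 was the highest of the 9 libraries for 11 of the 21, beside 16.4% of all measured genes. The list median was a log2 ratio of 0.28, beside -0.02 for all measured genes. Of the 6, CDC20B and FOXJ1 were measured only through hE2F4. Among the 19 at 1 CPM or more in blank 4 were raised, beside 2.19% of all such genes, and their median was 0.24.

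CDC20B, which lies in the locus of multiciliogenesis genes and hosts microRNAs of multiciliated cells, had 271 counts in hE2F4, 15.2 CPM. The 7 other TF libraries had 0.25, 0.423 and 0.946 CPM (lowest, median, highest) and blank 8 counts, 0.435 CPM. The ratio to blank was 34.9 (95% interval 17.4 to 81.6) and that to the highest other library, hNRF1, was 16.04 (9.55 to 29.1), the largest such ratio of any E2F4-specific mRNA by the ranking with a prior count of 5.

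MCIDAS, the coactivator that works with E2F4, had 14.2 CPM in hE2F4, 2.32, 3.87 and 5.42 CPM in the other TF libraries (lowest, median, highest) and 3.70 CPM in blank. The ratio was 3.83 (2.92 to 5.08). CCNO, an atypical cyclin needed for the deuterosome route of centriole amplification, had 19.5 CPM in hE2F4, 5.37, 6.41 and 9.21 CPM in the other TF libraries and 6.47 CPM in blank, a ratio of 3.02 (2.45 to 3.75). All 3 genes of the locus were thus at least 2-fold above every other library. GPX8, which lies within CDC20B on the other strand, was not: it had 35.4 CPM in hE2F4, 35.7 to 42.9 CPM in the other TF libraries and 39.8 CPM in blank. DHX29, on the far side of CCNO, had 54.0 CPM in hE2F4, 48.6 to 62.6 CPM in the other TF libraries and 52.2 CPM in blank. The divergent lncRNA CCNO-DT had 2 counts in hE2F4 and 1 in blank, too few to measure.

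TP73, the p53 family member whose long form is required for multiciliated cells, had 63.8 CPM in hE2F4, 20.7, 22.5 and 23.7 CPM in the other TF libraries (lowest, median, highest) and 19.1 CPM in blank, a ratio of 3.33 (2.96 to 3.77). MYB, a transcription factor of early multiciliogenesis, had 41.7 CPM in hE2F4, 9.04, 9.55 and 18.6 CPM in the other TF libraries and 10.4 CPM in blank, a ratio of 4.02 (3.42 to 4.73). FOXJ1, the master factor of motile cilia, had 87 counts in hE2F4, 4.87 CPM, and none in blank, at least 29.9-fold higher with 3 counts in place of 0. The hNKX2-8 library reached 4.11 CPM of FOXJ1 and its ratio to hE2F4 could not be told from 1 (hE2F4 over hNKX2-8 1.18, 0.845 to 1.67), so FOXJ1 was the highest in hE2F4 by less than its counting error.

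**Figure D1:**
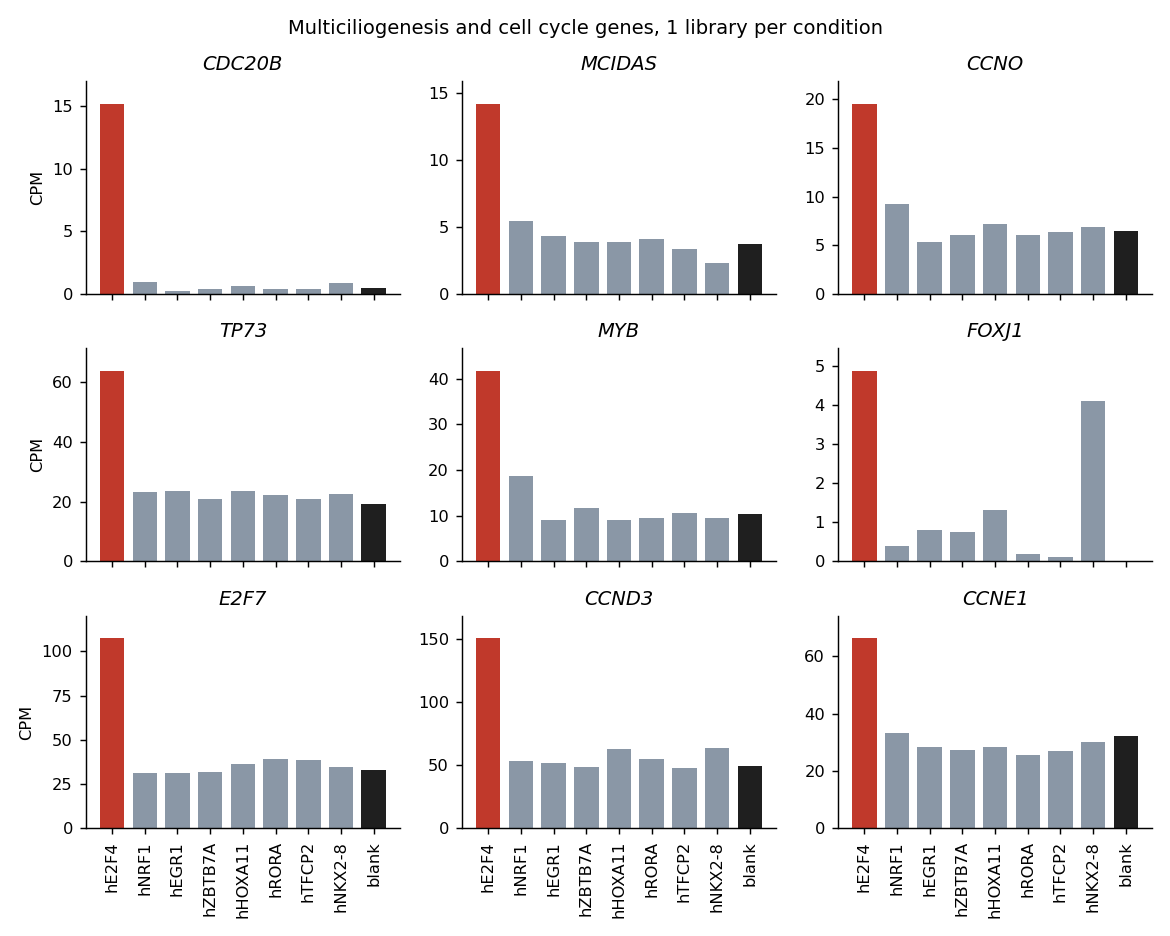
CPM of 9 multiciliogenesis and cell cycle genes in each library (bars, 1 library each, linear axes from 0, hE2F4 red, 7 other TF libraries grey, blank black). The hE2F4 bar stands apart for every gene except FOXJ1, where hNKX2-8 reached 4.11 CPM beside 4.87 CPM in hE2F4.

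The other measured genes of the list did not reach 2-fold, and some could not be measured. GMNC, which encodes GEMC1, had 2 counts in hE2F4 and none in blank, and DEUP1, the deuterosome scaffold, likewise had 2 and none. RFX2, a ciliary transcription factor, had 26.1 CPM in hE2F4, 14.6 to 22.2 CPM in the other TF libraries and 15.9 CPM in blank, a ratio of 1.64 (1.41 to 1.91) that was the highest of 9 but under 2-fold. The centriole genes that all dividing cells use lay between log2 ratios of -0.20 (CETN2, a centrin) and 0.40 (CCP110, a centriole cap protein). Of 25 motile cilium genes, which encode dynein arms, radial spokes and their assembly factors, 8 were measured. Only DNAI1, a dynein intermediate chain, was raised, 1 of 8 beside 3.68% of all measured genes. DNAI1 was measured only through hE2F4, with 19 counts there and 7 in blank. The hNRF1 library was higher than hE2F4 for it, at 1.64 CPM beside 1.06 CPM.

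Within the E2F family only E2F7 was raised. E2F7, an atypical E2F that represses E2F targets, had 107 CPM in hE2F4, 31.2, 34.97 and 39.1 CPM in the other TF libraries (lowest, median, highest) and 33.2 CPM in blank, a ratio of 3.23 (2.95 to 3.54). No other library approached it. E2F8, the other atypical member, had 19.9 CPM in hE2F4, 14.99 to 16.7 CPM in the other TF libraries and 16.5 CPM in blank, a ratio of 1.21 (1.03 to 1.41). The activators did not reach the 2-fold threshold. E2F1 had 90.01 CPM in hE2F4 and 87.0 CPM in blank, E2F2 42.3 and 40.2 CPM, and E2F3 75.5 and 77.9 CPM. E2F5, the closest relative of E2F4, had 34.3 CPM in hE2F4 and 40.6 CPM in blank, and E2F6, a repressor, 29.9 and 32.2 CPM. The DP partners were at 138 and 131 CPM (TFDP1) and 68.5 and 70.6 CPM (TFDP2) in hE2F4 and blank, and TFDP3 had no count in any library.

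None of the 10 pocket protein and MuvB genes was raised or lowered, and their log2 ratios ran between -0.10 and 0.34. RB1 had 66.3 CPM in hE2F4 and 62.6 CPM in blank, RBL1 (p107) 24.5 and 24.9 CPM, and RBL2 (p130) 59.4 and 63.5 CPM. The MuvB core genes LIN9, LIN37, LIN52 and RBBP4 were inside the range of the other libraries. LIN54, which binds the cell cycle element in DNA, was above it at 38.6 CPM in hE2F4, 27.1 to 32.3 CPM in the other TF libraries and 30.5 CPM in blank. MYBL2, the B-MYB partner of MuvB, had 444 CPM in hE2F4 and 436 CPM in blank.

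The cyclins of the G1/S transition were raised in part: 3 of 17 measured genes on that list, all E2F4-specific, beside 3.68% raised and 2.76% raised and E2F4-specific over all measured genes. CCND3, a D-type cyclin that activates CDK4 and CDK6, had 2689 counts in hE2F4, 151 CPM, against 48.1, 53.1 and 63.7 CPM in the other TF libraries (lowest, median, highest) and 49.9 CPM in blank, a ratio of 3.02 (2.80 to 3.26). CCNE2 had 55.8 CPM in hE2F4, 21.6, 23.3 and 27.1 CPM in the other TF libraries and 23.3 CPM in blank, a ratio of 2.40 (2.14 to 2.69). CCNE1 had 66.2 CPM in hE2F4, 25.5, 28.3 and 33.2 CPM in the other TF libraries and 32.2 CPM in blank, a ratio of 2.05 (1.86 to 2.27). For all 3 cyclins hE2F4 stood outside a narrow range of the other libraries. The remaining D-type cyclins were not raised, with CCND1 at 44.4 CPM in hE2F4 and 49.2 CPM in blank and CCND2 at 56.5 and 65.6 CPM. The kinase inhibitor CDKN1C had 20.3 CPM in hE2F4 and 10.7 CPM in blank, just under 2-fold, and hEGR1 was higher at 54.7 CPM.

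The lists of DNA replication and repair and of mitosis did not move with these cyclins. None of 65 measured genes of DNA replication and repair was raised or lowered. Their log2 ratios lay between -0.30 (BRIP1, a helicase of DNA repair) and 0.41 (POLE, the leading strand polymerase), with a median of -0.08 beside -0.02 for all measured genes. TYMS, thymidylate synthase, had 179 CPM in hE2F4, 139 to 155 CPM in the other TF libraries and 152 CPM in blank. None of 50 mitosis genes was raised or lowered either, and their median was also -0.08, with SPC25 of the kinetochore the lowest at -0.43 and GTSE1 the highest at 0.35. For 4 of the 50 hE2F4 was the highest of 9 and for 4 the lowest, beside 16.4% and 8.53% of all measured genes.

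Of 11 genes that link E2Fs to apoptosis TP73 and MAP3K5 were raised, 2 of 11 beside 3.68% of all measured genes. MAP3K5, the stress kinase ASK1, had 23.7 CPM in hE2F4, 7.79, 8.44 and 12.8 CPM in the other TF libraries and 9.03 CPM in blank, a ratio of 2.63 (2.19 to 3.17). BCL2L11, which encodes the BH3 protein BIM, had 38.3 CPM in hE2F4, 20.0 to 29.9 CPM in the other TF libraries and 25.5 CPM in blank, under 2-fold but the highest of 9. None of 26 p53 targets was raised, and the largest log2 ratio among them, 0.74 for PLK3, lay inside the range of the other libraries. Their median was 0.23 over blank and -0.016 over the averaged other TF libraries. In 293T cells p53 is held by the SV40 large T antigen, and whether this bears on the values of these genes was not tested.

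**Figure D2:**
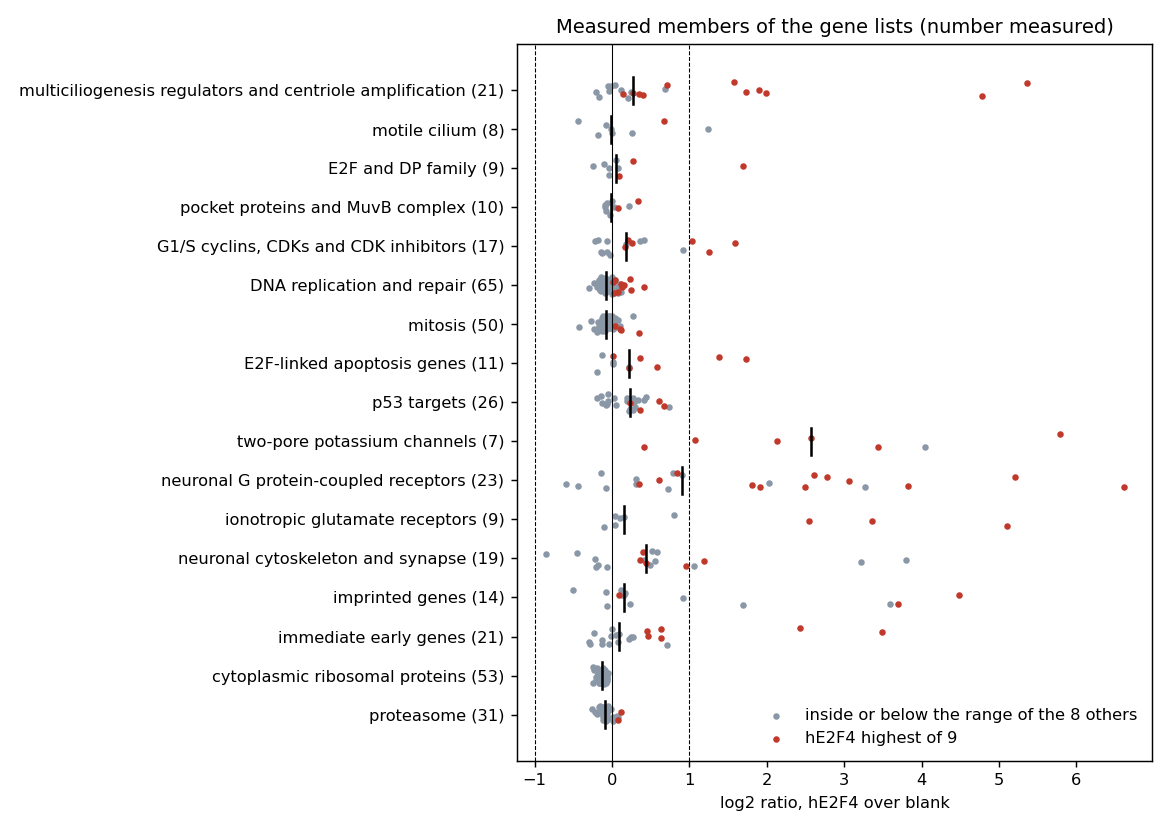
Log2 ratio of hE2F4 over blank for each measured member (points) of 17 gene lists, with the number measured in brackets, the list median as a black bar, and dashed lines at 2-fold. Red points are genes for which hE2F4 was the highest of 9 libraries. The 2-pore potassium channels lie to the right with a median of 2.57, but 4 of the 7 were measured only through hE2F4, which raises that median, and it was 1.26 over the averaged other TF libraries. The DNA replication, mitosis, ribosomal protein and proteasome lists lie close to 0 with no point past 2-fold.

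The mRNAs that set hE2F4 apart most were of mixed kind. Of 12644 measured mRNAs 423 were raised and 314 of these were E2F4-specific, and 105 stood at least 2-fold above every other library. The 129 such genes of all classes were 0.909% of those measured. After CDC20B the ranking gave TM6SF1, a lysosomal membrane protein, with 847 counts in hE2F4, 47.4 CPM. It had 0.999, 1.20 and 4.73 CPM in the other TF libraries (lowest, median, highest) and 1.14 CPM in blank. The ratio to blank was 41.5 (27.0 to 67.4) and that to the highest other library 10.03 (7.91 to 12.9). Its promoter window held 1 shorter core, TTGGCGC, 49 bases before the start. CBLN1, a secreted organizer of cerebellar synapses, had 21.6 CPM in hE2F4, 0.423, 1.13 and 2.52 CPM in the other TF libraries and 0.979 CPM in blank.

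EVA1C, a heparin-binding receptor, had 14.6 CPM in hE2F4, 0.859, 1.33 and 2.14 CPM in the other TF libraries and 1.47 CPM in blank, a ratio of 9.92 (6.66 to 15.3). LRRC75A had 49.0 CPM in hE2F4, 3.87, 4.87 and 7.88 CPM in the other TF libraries and 4.57 CPM in blank, a ratio of 10.7 (8.58 to 13.6). FST, the activin antagonist follistatin, had 16.5 CPM in hE2F4, 1.32, 1.84 and 2.84 CPM in the other TF libraries and 1.52 CPM in blank, a ratio of 10.9 (7.35 to 16.6). For each of these genes the other TF libraries spread by more than 2-fold among themselves, and hE2F4 lay further above the highest of them.

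FGD5, an exchange factor for CDC42, had 39.2 CPM in hE2F4 and 1.85 CPM in blank, with 8.07 CPM in hNRF1 the next. KCNIP3, a calcium-binding protein of potassium channels, had 53.1 CPM in hE2F4 and 4.51 CPM in blank, with 12.3 CPM in hNRF1. RHOBTB2, a CUL3 adaptor known as an E2F target, had 73.7 CPM in hE2F4, 13.1, 15.1 and 17.7 CPM in the other TF libraries and 14.9 CPM in blank, a ratio of 4.95 (4.34 to 5.66). SLC30A10, a manganese exporter, ADAMTSL3, a matrix glycoprotein, and ANO1, a chloride channel, completed the 12, with ratios to blank of 5.99 (3.79 to 9.89), 14.8 (9.19 to 25.4) and 17.6 (9.61 to 35.9).

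Among E2F4-specific mRNAs with at least 10 CPM in blank, where counting error was small, the largest changes were those of SYT7, RHOBTB2, SLC1A4, SPHK1, MYB and SHROOM1. SYT7, a calcium sensor of exocytosis, had 1477 counts in hE2F4, 82.7 CPM, against 11.96, 14.7 and 24.8 CPM in the other TF libraries and 13.8 CPM in blank, a ratio of 6.01 (5.26 to 6.90). SLC1A4, a neutral amino acid transporter, had 94.7 CPM in hE2F4, 23.1, 26.2 and 30.0 CPM in the other TF libraries and 19.3 CPM in blank. SHROOM1, an actin-binding protein, had 43.2 CPM in hE2F4, 11.1, 13.1 and 14.5 CPM in the other TF libraries and 10.8 CPM in blank. SPHK1, a sphingosine kinase, had 94.7 CPM in hE2F4 and 20.6 CPM in blank but was also at 59.2 CPM in hNRF1.

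**Figure D3:**
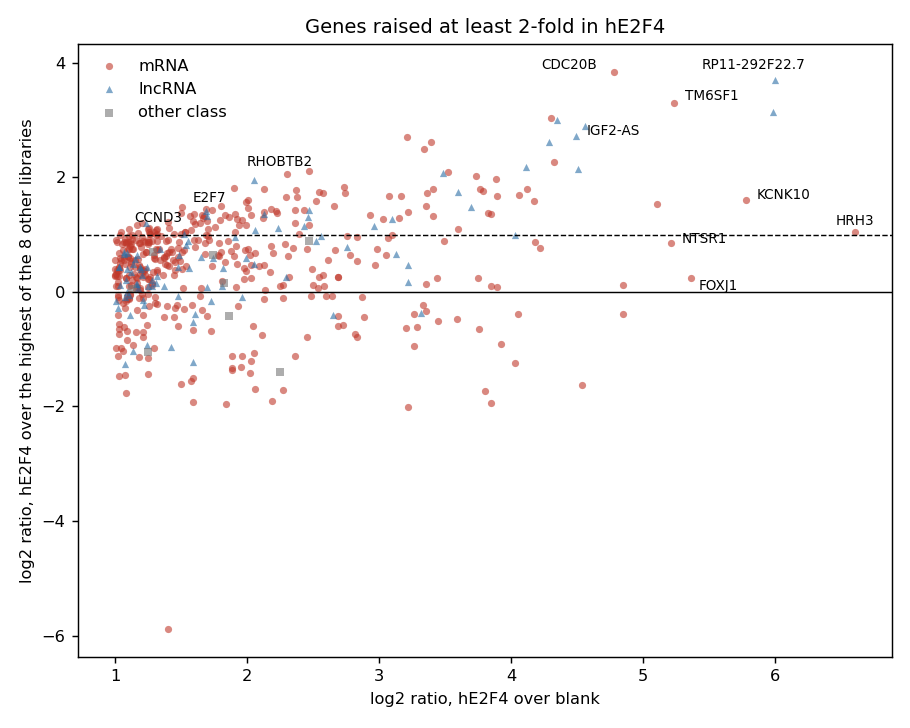
The 522 genes raised in hE2F4, by their log2 ratio over blank (horizontal) and over the highest of the 8 other libraries (vertical), with mRNAs as circles, lncRNAs as triangles and other classes as squares. Points above the solid line at 0 are E2F4-specific and those above the dashed line stand at least 2-fold above every other library. CDC20B, TM6SF1 and the lncRNA RP11-292F22.7 lie at the top, while FOXJ1 and NTSR1, with equally large ratios over blank, lie near another library. The lowest point is ZBTB7A, whose own insert sets the highest library.

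Raised genes were mostly of low level before. The 314 E2F4-specific raised mRNAs had a median of 14.3 CPM in hE2F4 and 3.81 CPM in blank, beside 31.2 and 30.4 CPM over all measured mRNAs. In blank 69 of the 314 were under 1 CPM, so that they entered the set only through hE2F4, and 79 were at 10 CPM or more. The library next to hE2F4 was hNRF1 for 184 of the 314 (58.6%), hZBTB7A for 38 and hEGR1 for 25, and blank for 3. Of the 109 raised mRNAs that were not E2F4-specific 79 were highest in hNRF1. In 94 of the 314 blank was the lowest of the 8 other libraries. Over the 13975 genes compared below, hNRF1 was the highest of all libraries for 16.2% and blank the lowest for 7.21%. These shares rank hE2F4 with the other libraries and are not matched to the 314 or the 109. The 314 were chosen as raised over blank, which itself makes blank less often the next library and more often the lowest. The counts of 3 and 94 for blank can therefore not be read against such a share. With the averaged level of the 7 other TF libraries as the reference in place of blank 294 of the 391 E2F4-specific raised genes remained raised.

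Compared over 13975 genes with a mean of at least 1 CPM, without the 8 inserted genes, hE2F4 stood at least 2-fold above every other library for 104 genes. This was close to 115 for hNRF1, and the count was 24 for hEGR1 and 0 to 7 for the 5 other TF libraries and 0 for blank. hE2F4 was at least 2-fold below every other library for 1 gene. Without hNRF1 in the range the number of raised genes standing clear in hE2F4 was 217 in place of 129.

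**Figure D4:**
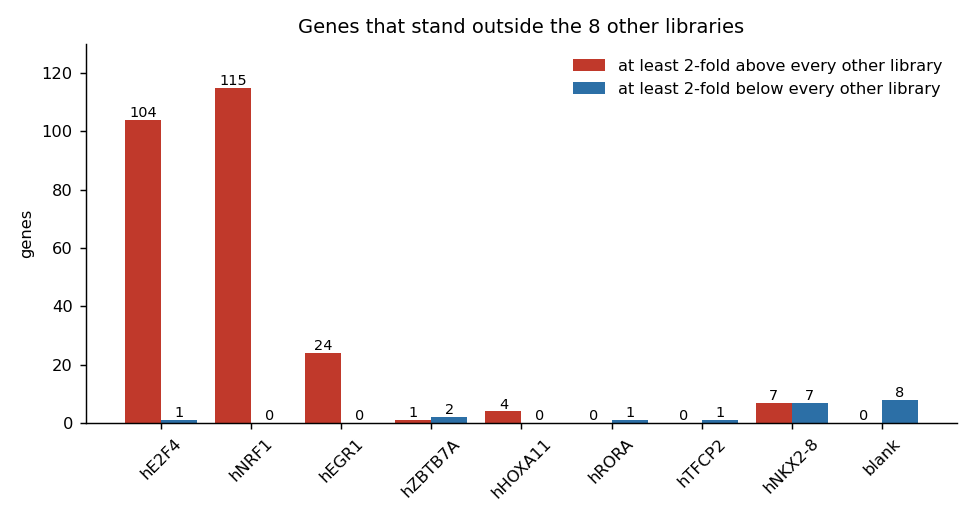
Number of genes, of 13975 at a mean of at least 1 CPM, that stood at least 2-fold above (red) or below (blue) every other library, for each of the 9 libraries. hE2F4 (104) and hNRF1 (115) stand apart from the others, which had at most 24 genes above, and hE2F4 had 1 gene below.

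Genes on the lists of neuronal receptors and channels were examined next, many of which were near 0 in blank. Of 56 neuronal G protein-coupled receptors 23 were measured and 11 raised, 9 of which were E2F4-specific. Of the 11 raised, 9 were measured only through hE2F4, so their count cannot be read against 3.68%. Among the 13 receptors at 1 CPM or more in blank 2 were raised, GABBR2 and GRM4, beside 2.19% of all such genes. HRH3, the histamine H3 receptor, had 304 counts in hE2F4, 17.0 CPM, against 0.302, 0.595 and 8.20 CPM in the other TF libraries (lowest, median, highest) and 1 count in blank, a ratio of 313 with an interval of 55.8 to 12400. hNRF1 held the highest of the other levels, and the ratio to it was 2.08 (1.69 to 2.57). NTSR1, a neurotensin receptor, had 8.40 CPM in hE2F4, 0.0604, 0.531 and 4.60 CPM in the other TF libraries and 2 counts in blank, so that hE2F4 was 1.82 times (1.37 to 2.45) the next library, hNRF1.

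DRD2, the dopamine D2 receptor, had 3.13 CPM in hE2F4, 0.178, 0.597 and 1.14 CPM in the other TF libraries and 2 counts in blank. GABBR2, a subunit of the GABA-B receptor and the only raised receptor of the list with more than 100 counts in blank, had 25.6 CPM in hE2F4, 6.30, 8.47 and 22.6 CPM in the other TF libraries and 7.23 CPM in blank, a ratio of 3.55 (2.92 to 4.33). CHRM4, a muscarinic receptor, had 4.70 CPM in hE2F4 and 0.381 CPM in blank but 9.12 CPM in hZBTB7A. GRM4, a metabotropic glutamate receptor, had 5.49 CPM in hE2F4 and 1.25 CPM in blank but 12.8 CPM in hNRF1. The last pair was therefore not E2F4-specific. In contrast, SSTR2, DRD4 and NPY1R had log2 ratios of -0.07, -0.44 and -0.14.

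Of the 2-pore potassium channels, which set the resting potential, 7 of 15 were measured and 6 were raised. As 4 of the 6 were measured only through hE2F4, this count cannot be read against 3.68% either. At 1 CPM or more in blank 2 of 3 were raised, KCNK5 and KCNK13, beside 2.19% of all such genes. KCNK10 (TREK-2) had 117 counts in hE2F4, 6.55 CPM, 0, 0.0604 and 2.08 CPM in the other TF libraries and no count in blank, at least 40.2-fold higher with 3 counts in place of 0. KCNK5 (TASK-2) had 17.7 CPM in hE2F4, 9.19, 9.79 and 11.5 CPM in the other TF libraries and 8.37 CPM in blank, a ratio of 2.11 (1.74 to 2.58). KCNK13 had 7.33 CPM in hE2F4 and 1.58 CPM in blank, with 7.19 CPM in hNRF1. KCNK12 had 5.49 CPM in hE2F4 and 0.218 CPM in blank and was higher in hNRF1, at 7.19 CPM. KCNK9 (TASK-3) and KCNK2 (TREK-1) had 74 and 28 counts in hE2F4 and 5 and 3 in blank. KCNK1, the 1 measured channel that was not raised, had 18.6 CPM in hE2F4 and 13.97 CPM in blank. KCNK10 alone stood at least 2-fold above every other library.

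On the list of ionotropic glutamate receptors, which includes the auxiliary subunit gene GSG1L, 3 of 9 measured genes were raised. All 3 were E2F4-specific, and 3.68% of all measured genes were raised. GRIK3 was measured only through hE2F4, so the count of 3 cannot be read against 3.68%. At 1 CPM or more in blank 2 of 8 were raised, GRIN3B and GSG1L, beside 2.19% of all such genes. GRIK3, a kainate receptor subunit, had 173 counts in hE2F4, 9.68 CPM, 0.0595, 0.312 and 3.28 CPM in the other TF libraries and 3 counts in blank, a ratio of 59.4 (20.0 to 291). GRIN3B, an NMDA receptor subunit, had 21.3 CPM in hE2F4, 2.81, 3.72 and 6.36 CPM in the other TF libraries and 1.96 CPM in blank, a ratio of 10.9 (7.71 to 15.8). GSG1L, an AMPA receptor auxiliary subunit, had 7.56 CPM in hE2F4 and 6.29 CPM in hZBTB7A, close to each other, and 1.20 CPM in blank. Of 19 measured genes of the neuronal cytoskeleton and synapse 4 were raised, beside 3.68% of all measured genes. Of the 4, 2 were measured only through hE2F4. At 1 CPM or more in blank 2 of 17 were raised, beside 2.19% of all such genes. Only RBFOX3 (NeuN) was raised and E2F4-specific, with 14.3 CPM in hE2F4, 5.20 to 11.4 CPM in the other TF libraries and 6.20 CPM in blank. SCRT1, NEFH and SYN1 were higher in hEGR1 or hNRF1.

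**Figure D5:**
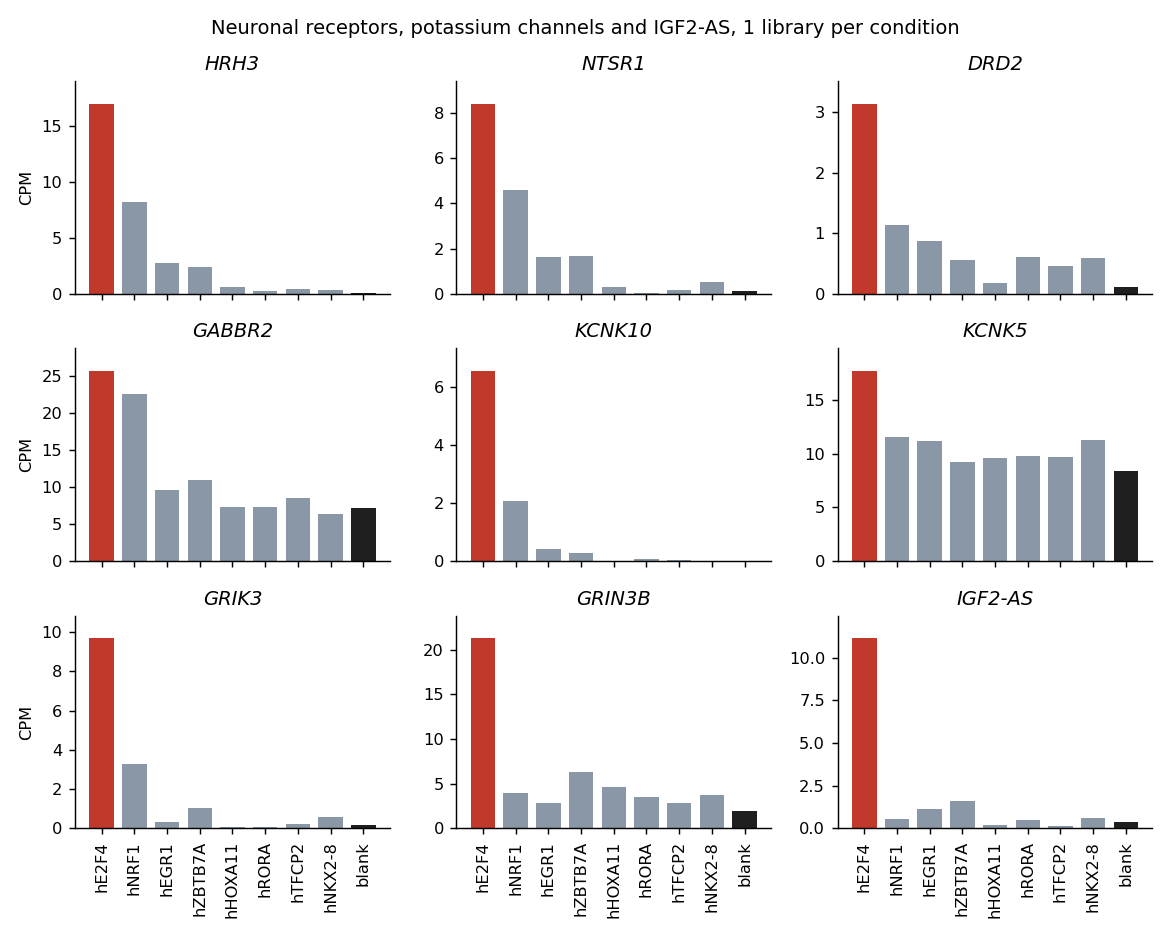
CPM of 8 neuronal receptor and channel genes and of IGF2-AS in each library (bars, 1 library each, linear axes from 0, hE2F4 red, 7 other TF libraries grey, blank black). hNRF1 was the next library for 7 of the 9 genes, as for HRH3 (17.0 CPM in hE2F4, 8.20 CPM in hNRF1), and hZBTB7A for GRIN3B and IGF2-AS.

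Other lists gave few or no raised genes. Of 21 immediate early genes EGR4 (33 counts in hE2F4, 1 in blank) and DUSP2, a nuclear MAP kinase phosphatase (67 and 11 counts), were raised, beside 3.68% of all measured genes, and both were measured only through hE2F4. Of 11 measured interferon-stimulated genes ISG20 and IFIH1 were raised on 19 and 18 counts in hE2F4, against 5 and 8 in blank, with an interval for IFIH1 that included 1. Both were measured only through hE2F4, so this count cannot be read against 3.68%. None of the 9 interferon-stimulated genes at 1 CPM or more in blank was raised. For none of the 11 was hE2F4 the highest of the 9 libraries. No gene was raised or lowered among 16 of the unfolded protein and integrated stress response, 12 heat-inducible chaperones, 31 of the proteasome, 53 cytoplasmic ribosomal proteins and 5 measured germline and meiosis genes. The ribosomal protein genes had a median log2 ratio of -0.13 and hE2F4 lay inside the range of the other libraries for all 53.

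For the lncRNAs, the class the experiment was designed for, 1463 of 36479 were measured, with a median of 1.96 CPM in blank. In hE2F4 91 were raised (6.22%, beside 3.68% of all measured genes) and 23 lowered (1.57%, beside 0.261%). Of the 234 measured lncRNAs that the study lists as conserved between human and mouse 19 were raised (8.12%) and 4 lowered, and of the 1229 non-conserved ones 72 were raised (5.86%) and 19 lowered. E2F4-specific raised lncRNAs numbered 16 (6.84%) and 56 (4.56%). Among the 107 measured high-confidence conserved lncRNAs 11 were raised. The median log2 ratios were 0.00 for conserved and 0.02 for non-conserved lncRNAs. With 1 library per condition the difference between these shares was not tested. Of the 72 E2F4-specific raised lncRNAs 61 were under 1 CPM in blank and so were measured only through hE2F4. The shares of raised lncRNAs rest largely on such genes and cannot be read against 3.68%.

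IGF2-AS (chr11:2161731-2169896, GRCh37, plus strand), a conserved lncRNA that overlaps the imprinted growth factor gene IGF2 on the other strand, had 199 counts in hE2F4, 11.1 CPM. The other TF libraries had 0.172, 0.568 and 1.59 CPM (lowest, median, highest) and blank 7 counts, 0.381 CPM, so that the ratio was 29.3 (13.9 to 73.8). It was 7.01 times (4.54 to 11.3) the highest other library, hZBTB7A. IGF2 itself had 52 counts in hE2F4 and 15 in blank, a ratio of 3.57 (1.98 to 6.83), but was higher in hZBTB7A, and H19, the lncRNA beside it, had 22 counts in hE2F4 and 33 in blank. No source read here states whether strand was used in counting, and reads of a gene and its antisense partner cannot then be told apart.

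DIO3OS (chr14:102018558-102026768, minus strand), which lies beside the imprinted deiodinase gene DIO3, had 51 counts in hE2F4, 2.85 CPM, 0, 0.238 and 0.946 CPM in the other TF libraries and 2 counts in blank. DIO3 had 59 counts in hE2F4 and 3 in blank, and was highest in hEGR1. Of 14 measured imprinted genes these 4 were raised, beside 3.68% of all measured genes. All 4 passed the minimum level only through hE2F4, so this count cannot be read against that share. Among the 10 at 1 CPM or more in blank none was raised. The maternally expressed MEG3, in the same imprinted domain as DIO3, had 1 count in hE2F4 and none in blank.

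Further conserved lncRNAs were raised from low counts. MIRLET7BHG, the host of let-7 microRNAs, had 33 counts in hE2F4, 1.85 CPM, 0.121 to 0.691 CPM in the other TF libraries and 2 counts in blank. TPBGL-AS1 had 19 counts in hE2F4 and 3 in blank. FENDRR, a lncRNA of lateral mesoderm beside FOXF1, was the best counted, with 379 counts in hE2F4, 21.2 CPM, against 10.1, 11.4 and 13.1 CPM in the other TF libraries and 10.1 CPM in blank, a ratio of 2.11 (1.76 to 2.53). LINC01896 had 5.99 CPM in hE2F4, 1.63, 2.07 and 3.78 CPM in the other TF libraries and 2.07 CPM in blank.

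Of the non-conserved lncRNAs RP11-292F22.7 (chr10:47656084-47657233, GRCh37) had 136 counts in hE2F4, 7.61 CPM, against 0.0573, 0.181 and 0.476 CPM in the other TF libraries and no count in blank, at least 46.7-fold higher with 3 counts in place of 0. It was 16 times (7.89 to 37.8) the highest other library. PRDM6-AS1 had 255 counts in hE2F4, 14.3 CPM, 1.90, 2.90 and 5.67 CPM in the other TF libraries and 2.50 CPM in blank, a ratio of 5.71 (4.16 to 7.99). RASAL2-AS1 and PHC2-AS1 had 58 and 30 counts in hE2F4, against 9 and 8 in blank, and were at least 2-fold above every other library.

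Lowered genes were few and of low count. Apart from TFCP2, whose level in blank is given above, no lowered gene had more than 39 counts in hE2F4 or 85 in blank, and TFCP2 was the only lowered gene that reached 5 CPM in blank. Of the 37 lowered genes 9 remained lowered when hE2F4 was set against the averaged other TF libraries, and in 16 of the 37 blank was the highest of the 9 libraries. Choosing genes as lowered against blank itself favours blank as the highest. The 6 E2F4-specific lowered mRNAs farthest under the other libraries were CCDC62, CALCRL, AGMAT, ALPK3, IGSF10 and LRRC9, with 6 to 25 counts in hE2F4. CCDC62, a coactivator of the estrogen receptor, had 6 counts in hE2F4 and 25 in blank, a ratio of 0.247 (0.0829 to 0.617). CALCRL, the calcitonin receptor-like receptor, had 9 counts in hE2F4 and 26 in blank. For ALPK3 and LRRC9 the 95% interval of the ratio reached above 1. Among lncRNAs with a symbol HILPDA-AS1, HK2-DT and HOXC-AS3 were lowered and E2F4-specific, of which HK2-DT, divergent from the hexokinase gene HK2, had the most counts, 39 in hE2F4 and 85 in blank.

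Genes next to the threshold of 2-fold, which is applied after the prior count of 2, had like values on either side of it. SLC8A1 and CASZ1, just inside it, had 17.5 and 38.6 CPM in hE2F4 and 8.70 and 19.3 CPM in blank, both at a log2 ratio of 1. PRODH and EPB41L4A, just outside, had 10.9 and 9.74 CPM in hE2F4 and 5.38 and 4.84 CPM in blank, at 0.997 and 0.991, with ratios before the prior count of 2.02 and 2.01.

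Promoter windows of the E2F4-specific raised mRNAs were searched for E2F sites. RefSeq windows of 300 bases (250 before a start and 50 after it) were listed for 234 of the 314 genes, 367 windows in all since a gene may have several starts. TTTCCCGC or TTTGGCGC was found on either strand in 8 of the 367 windows (2.18%), beside 3.29% of the 15313 windows of measured mRNAs and 2.27% of all 35116 windows. TTTGGCGC alone was in 1.91% of the windows of the E2F4-specific raised mRNAs, against 0.98% of those of measured mRNAs, and TTTCCCGC alone in 0.272% and 2.33%. At least 1 of the 4 shorter cores marked in the windows above was in 18.5% and 19.2%. The cell cycle element, TTTGAA or TTCGAA, was in 10.4% and 11.4%. The E2F4-specific raised mRNAs had windows with a median of 70.7% G and C and 30 CpG dinucleotides, against 65.0% and 26 for measured mRNAs. The share of windows with a site was thus not above that of measured mRNAs for the 8-base sites together, the shorter cores or the cell cycle element.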

How the data were processed

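The authors deposited raw gene counts with no normalization. The submitters' processing notes name featureCounts 1.6.3, STAR 2.6.0c, FastQC 0.11.2 and the build GRCh37. No source read here states the strand setting. The labels give TRIzol extraction, the methods a miRNeasy kit. Gene names came from GENCODE v44lift37, conserved lncRNAs from the list of the study. Counts were scaled by TMM (edgeR 4.0.16, R 4.3.3), and log2 ratios used a prior count of 2. Ratios have exact conditional binomial intervals at 95% (scipy), for counting error only. With 1 library per condition no gene was called by a p-value, and none is printed.

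Named genes followed a rule: the 12 E2F4-specific raised mRNAs farthest above the highest other library (prior count of 5), the 6 with the largest ratio to blank, the 6 largest with 10 CPM in blank, 6 lowered mRNAs, 6 conserved and 4 other raised lncRNAs, 4 lowered lncRNAs (3 had a symbol), 4 members of each list, and all E2F, DP, pocket protein and multiciliogenesis genes. Other genes were named after their values were seen. The members and gene lists were chosen with earlier results of these data known. Alternatives were library totals, DESeq2 1.42.0 size factors, other minimum levels, prior counts, folds, ranges and reference, and, for counts of calls only, an exact test in edgeR at a preset BCV with an adjusted p threshold of 0.05. The calculation of ratios was also run on simulated Poisson counts with planted folds. Those counts held no variation between transfections, so that run says nothing about such variation.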

Additional observations from a re-analysis of the deposited data

How the results depend on the processing

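Library totals and DESeq2 size factors moved no count of genes by over 1.5 times. Raised genes numbered 289 at a minimum of 5 CPM, 1396 with no minimum, 1167 at 1.5-fold, 328 with the averaged other TF libraries as the reference, and 37 by an exact test in edgeR at a preset BCV of 0.4. Lowered genes numbered 1, 580, 220, 112 and 1 in the order of these settings, 15 with a prior count of 5, and 19 at a mean of 1 CPM over the 9 libraries, a setting chosen after seeing the data. E2F4-specific raised genes numbered 260 at 5 CPM, 735 with no minimum and 770 at 1.5-fold, and lowered ones 1, 200 and 105, with 10 at a prior count of 5. Raised genes standing clear numbered 304 at 1.5-fold and 217 without hNRF1. With a minimum of 1 CPM in blank itself, chosen after seeing the data, 300 genes were raised, 258 of them E2F4-specific and 84 standing clear. At 5 CPM raised lncRNAs were 6.58% of the conserved and 2.70% of the non-conserved ones, and TTTCCCGC alone was in 0.272% of windows. Over the averaged other TF libraries the log2 ratios of NEFH (-0.52) and ISG20 (-0.60), both raised over blank, reversed. Signs also changed for named genes that were not raised, such as FOSL1 (0.71 over blank, -0.71 there) and PLK3 (0.74 and -0.065). Of 131 named genes 60 moved beyond their counting interval. The cause was not tested. HRH3 fell to 2.92 there, against 6.61 over blank, and FOXJ1 to 2.04, against 5.36. No paired analysis was possible because each condition had 1 library.

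Depth limits most lncRNAs, and 92 of the 391 E2F4-specific raised genes had under 50 counts in hE2F4. Differences between transfections cannot be told apart from E2F4.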

Other observations

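WNT ligand genes, a family picked after the values were seen, were raised in 7 of 14 measured cases (19 in the table), beside 3.68% of all measured genes, and hE2F4 was the highest of 9 libraries for all 7. WNT4, WNT7A and WNT2 were measured only through hE2F4, and the family was picked on these values. The count can therefore not be read against 3.68%. At 1 CPM or more in blank 4 of 11 were raised, beside 2.19% of all such genes, and the same choice of family lies behind this share. WNT4 had 8.68 CPM in hE2F4, 0.833, 1.59 and 3.47 CPM in the other TF libraries (lowest, median, highest) and 0.870 CPM in blank, a ratio of 9.97 (5.95 to 17.9). WNT9A had 16.1 CPM in hE2F4, 2.49, 3.44 and 5.93 CPM in the other TF libraries and 3.05 CPM in blank, a ratio of 5.29 (3.96 to 7.18). WNT7B had 16.7 CPM in hE2F4, 2.86 to 8.30 CPM in the other TF libraries and 1.85 CPM in blank. WNT7A and WNT2 were at 4.93 and 4.42 CPM in hE2F4, close to 4.54 and 3.72 CPM in hNRF1, and had 1 and 4 counts in blank. WNT3A and WNT3 were just over 2-fold above blank, whereas WNT5A had 22.4 CPM in hE2F4 and 24.0 CPM in blank.

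Of 15 measured WNT feedback and effector genes 5 were raised, beside 3.68% of all measured genes. They were also chosen after the values were seen, so this count cannot be read against that share either. TCF7, a nuclear effector of WNT signalling, had 50.1 CPM in hE2F4, 16.6, 17.6 and 21.8 CPM in the other TF libraries and 15.98 CPM in blank, a ratio of 3.13 (2.74 to 3.59). NOTUM, a secreted WNT deacylase, had 32.5 CPM in hE2F4, 5.21 to 19.04 CPM in the other TF libraries and 6.31 CPM in blank. NKD1 and APCDD1, both WNT inhibitors, had 37.2 and 8.96 CPM in hE2F4 and 15.9 and 4.13 CPM in blank. Members that were neither raised nor lowered included AXIN2, with 11.8 CPM in hE2F4 and 11.3 CPM in blank, and LEF1, with 30.9 and 32.6 CPM. RNF43 (6.16 and 7.45 CPM), ZNRF3 (38.4 and 34.8 CPM), TCF7L1 (17.0 and 20.4 CPM) and TCF7L2 (16.7 and 19.3 CPM) were likewise neither. The median of the 15 was a log2 ratio of 0.07.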
